A study of Mus musculus with 12 samples.

Results

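Trophoblast transcription factors are the genes Cdx2, Elf5, Gata3, Tfap2a, Tfap2c and Hand1, chosen by symbol. All 6 were present in each of the 4 deposited tables, which list 18412 genes. RNA was sequenced from 12 libraries of mouse embryonic stem cells (ESCs) in 4 groups of 3. The first pair set a Dicer1-/- line against the TFC wild-type line, and the second a Dgcr8-/- line against the V6.5 wild-type line. Per the labels, every group grew in medium with serum and leukaemia inhibitory factor, on a gelatin coat, and none received another treatment. Dicer1 cleaves the hairpin precursors of microRNAs, and Dgcr8 is the partner of Drosha in the nuclear step before it. Each group is 1 cell line, so the loss of a factor and other differences between the lines cannot be told apart. The age of the lines and the way in which each deletion was made are not given in the labels. Separate cultures are not named in the labels, so the p-values rest on a spread among libraries that may be technical alone.

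Values are normalised reads, that is, reads on the exons or introns of a gene divided by a size factor of the library. The authors deposited group means. The reads of the single libraries were recovered from these means and the libraries named A, B and C. Library A is the one whose exonic reads correlated least, on average, with the other 2 of its group. The margin was small in Dicer1 knockout (mean r of 0.884, against 0.890 and 0.895) and TFC (0.778, against 0.807 and 0.788). It was wider in Dgcr8 knockout (0.839, against 0.891 and 0.877) and V6.5 (0.796, against 0.863 and 0.844). The A libraries of the 4 groups deviated together (r of 0.63 to 0.72 across 11420 genes). Libraries B and C, lettered by size factor, did so more weakly, with r of 0.16 to 0.32 and of 0.12 to 0.49. The recovered depth of a library was 5814673 to 30176230 reads on exons and 559057 to 5579938 on introns. The targeted genes were lower in their knockouts: Dicer1 had 1333.5, 1762.9 and 1674.5 normalised exonic reads in the knockout, against 2943.8, 3277.8 and 3496.4 in TFC, and Dgcr8 had 342.1, 955.5 and 1113.6 in its knockout, against 1929.8, 2707.1 and 2947.1 in V6.5 (limma adjusted p = 0.0766 and 0.11). These levels cover all exons and do not check a deletion of part of the gene. The markers of ESCs were high in every group. Pou5f1 had 13907.9 to 28663.0 normalised exonic reads in Dicer1 knockout libraries and 13342.6 to 22230.5 in TFC, and 8850.7 to 28115.4 in Dgcr8 knockout and 4459.7 to 18637.4 in V6.5.

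In the mouse blastocyst the outer cells form the trophectoderm, the source of the placenta, and the inner cells form the lineage from which ESCs are derived. Tead4 with Yap switches on Cdx2 and Gata3 in the outer cells, and Tfap2c acts beside them. Cdx2 holds Pou5f1 down there, and Elf5 later sustains trophoblast stem cells in a loop with Cdx2 and Eomes. Tfap2a belongs to the same AP-2 family as Tfap2c, and Hand1 drives the differentiation of trophoblast giant cells. None of the 6 is a marker of trophoblast alone. Cdx2 is also a gene of the primitive streak and hindgut, Hand1 of lateral mesoderm, Tfap2a of neural crest and surface ectoderm, Gata3 of surface ectoderm, and Tfap2c of primordial germ cells.

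The 6 genes fell into 1 expressed member and 5 low ones. Tfap2c was well expressed in every group, and its level did not differ between knockout and wild type beyond the spread of the libraries. Cdx2 was 67.9-fold lower in the Dgcr8 knockout line, against V6.5, the only member past the test in either exon comparison, with a limma adjusted p just under the threshold, and it had passed the filter on low values through V6.5 alone. Gata3 was higher in all 3 Dicer1 knockout libraries than in all 3 TFC libraries. It was lower in all 3 Dgcr8 knockout libraries than in all 3 V6.5 libraries. Neither difference passed, and in the Dicer pair Gata3 had passed the filter on low values through the knockout alone. Elf5 and Tfap2a had few reads, with at least 1 library at 0 in every group, and Hand1 had few in the Dicer pair. In bulk RNA, fewer cells with a gene and less RNA of it per cell cannot be told apart.

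Because both knockouts concern microRNAs, the matches of ESC microRNA seeds in the members were looked up first. The miR-290 cluster is abundant in mouse ESCs. Its microRNAs miR-291a, miR-294 and miR-295 share 1 seed with miR-302b and miR-302d, while miR-17 and its relatives carry it shifted by a base. The mature sequences below are shown because their seeds are those searched in the members. They are taken from RefSeq (GRCm38.p6), and capitals mark the seed, bases 2 to 8.
mmu-miR-294-3p: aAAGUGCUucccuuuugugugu
mmu-miR-302b-3p: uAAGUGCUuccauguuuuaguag
mmu-miR-17-5p: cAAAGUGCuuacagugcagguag
mmu-miR-92a-3p: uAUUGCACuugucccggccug
mmu-miR-16-5p: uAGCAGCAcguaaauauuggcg
mmu-miR-26a-5p: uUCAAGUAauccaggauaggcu

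The 7 bases complementary to each seed were searched in the longest annotated 3′ UTR of each gene (GENCODE M21, GRCm38), on the transcript strand alone. None of the 6 members held a match to AAGUGCU, the seed of miR-291a, miR-294, miR-295 and miR-302, which 15.1% of 17852 genes held. None held a match to the seed of miR-17, miR-20, miR-93 and miR-106 (12.2% of genes), of miR-19 (11.3%) or of miR-130 and miR-301 (10%). Elf5, Gata3 and Tfap2c held no match to any of the 7 seed families searched. Hand1 held 1 match to the miR-25 and miR-92 seed (6.6% of genes), Cdx2 held 1 each to miR-15/16 (21.3%) and miR-26 (9.7%), and Tfap2a held 2 overlapping ones to miR-15/16. A match is a stretch of letters and not a proven site, and no match says only that the letters are not in the annotated UTR. The matches of Cdx2 and Hand1 are shown with the bases around them, with the match in capitals, at position 770 and 393 of the 1037 bases of the Cdx2 UTR and at position 174 of the 894 bases of the Hand1 UTR.
Cdx2, miR-15/16 match: aagaccggaattgttTGCTGCTgtt
Cdx2, miR-26 match: gggtgggggtagcaaTACTTGAgcc
Hand1, miR-25/92 match: ccactaggatcgcacGTGCAATgtc

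The members lie apart in the genome (GENCODE M21, GRCm38). Cdx2 spans chr5:147300805-147307270 on the minus strand, Hand1 chr11:57828705-57832818 on the minus strand and Tfap2c chr2:172549593-172558622 on the plus strand. Elf5 at chr2:103411688-103450989 on the plus strand is alone in its interval too. Gata3 at chr2:9857078-9890034 on the minus strand overlaps 3 other annotated genes, 1 on its own strand and 2 on the other. Tfap2a at chr13:40715302-40738376 on the minus strand overlaps 3 genes on the other strand. The libraries kept strand, but no source used here says whether the authors' counting used it, so reads of these partners cannot be told apart from those of Gata3 and Tfap2a.

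Tfap2c, the AP-2 gamma factor that trophectoderm shares with germ cells, was the highest of the 6 in every group. Per kb of exon, its level was 986 normalised reads in Dicer1 knockout and 874 in TFC, higher than in 91.0% and 89.1% of all genes. On its own scale, the Dgcr8 table gave 413 normalised reads per kb in Dgcr8 knockout and 422 in V6.5, higher than in 83.5% and 83.7% of genes. The 2 tables were scaled separately, so levels are not compared between them.

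Single libraries of 1 group differed in Tfap2c by more than the groups did. It had 4348.8, 2839.7 and 1889.7 normalised exonic reads in Dicer1 knockout libraries A, B and C, against 5036.6, 1388.2 and 1616.6 in TFC. Library A was the highest of both groups and the groups overlapped. Of the 13139 genes tested in the Dicer exons (mean of at least 10 normalised reads over the 6 libraries), limma called 1.26% at an adjusted p under 0.05. Tfap2c was not among them, with a log2 fold change of 0.35 (SE 0.50; limma adjusted p = 0.796). The change was -0.21 between the A libraries and 0.63 between the B and C libraries.

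In the Dgcr8 pair, Tfap2c had 1374.4, 1315.2 and 1116.0 normalised exonic reads in the knockout, against 2295.4, 610.6 and 977.1 in V6.5. The knockout libraries lay inside the range of the V6.5 libraries, and the V6.5 library A was again the highest. The log2 fold change was 0.19 (SE 0.47; limma adjusted p = 0.916), with -0.74 between the A libraries and 0.65 between the B and C libraries. The effects in the 2 pairs differed by 0.16 on the log2 scale (SE 0.75; limma adjusted p = 0.999).

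Intronic reads, which report unspliced RNA, could be tested for Tfap2c alone. It had 340.4, 159.5 and 163.7 normalised intronic reads in Dicer1 knockout libraries, against 435.4, 31.1 and 62.9 in TFC (log2 fold change 1.11, SE 0.78; limma adjusted p = 0.625). In the Dgcr8 pair the values were 128.1, 44.2 and 42.8 in the knockout, against 133.3, 68.9 and 54.9 in V6.5 (log2 fold change -0.35; limma adjusted p = 0.842). The groups overlapped in both. Over all tested genes, limma called 0.353% in Dicer introns and 1.52% in Dgcr8 introns. Exonic minus intronic change was -0.76 (SE 0.59) in the Dicer pair and 0.49 (SE 0.56) in the Dgcr8 pair, with limma adjusted p of 0.925 and 0.946. In this test limma called 0 of 10953 and 0 of 10277 genes (0.00% each), with 389 and 588 at an unadjusted p under 0.05.

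Cdx2, the homeobox factor that sets trophectoderm apart from the inner cells, was read in all V6.5 libraries and hardly anywhere else. It had 6.7, 0.0 and 0.0 normalised exonic reads in Dgcr8 knockout libraries A, B and C, from 16, 0 and 0 recovered reads, against 96.5, 194.1 and 162.6 in V6.5, from 38, 214 and 102 recovered reads. The groups did not overlap, and 2 of 3 knockout libraries held no read at depths of 16653914 and 16592587. The means were 2.23 ± 3.85 in Dgcr8 knockout and 151 ± 49.8 in V6.5 (SD, n = 3 each), so Cdx2 was 67.9-fold lower. The log2 fold change was -6.21 (SE 1.13), with -3.67 between the A libraries and -7.48 between the B and C libraries.

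The limma adjusted p of Cdx2 was 0.0493, so the call sits at the edge of the threshold. Of the 12665 genes tested in the Dgcr8 exons, 1.35% were called, and 0.561% were called lower in the knockout. Cdx2 was 1 of 5 members tested there and the only one called. Because it passed the filter on low values through V6.5 alone, the fit of 14992 genes with no filter is given beside it, where the limma adjusted p was 0.0479. With a term for the library set (A against B and C) the limma adjusted p was 0.00432, where 8.66% of all tested genes were called lower, and over all alternatives it was 0.00432 to 0.265. The call was lost with a pseudocount of 0.5 (limma adjusted p = 0.0633) and with limma-voom (0.0992). It was also lost without knockout library B (limma adjusted p = 0.218) or C (0.193), and without V6.5 library A (0.0558), B (0.265) or C (0.212). The fold change kept its sign in each of these and ranged from -7.48 to -4.50 over the alternatives.

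In the Dicer pair Cdx2 was close to 0 in knockout and wild type alike. It had 1.3, 0.0 and 0.0 normalised exonic reads in Dicer1 knockout, against 7.5, 0.0 and 0.0 in TFC, all from the A libraries (2 and 14 recovered reads). It did not reach the filter and was not tested. The contrast of both pairs, which includes it, gave a difference of effects of 5.58 (SE 1.87; limma adjusted p = 0.4). Intronic reads of Cdx2 were at 0 in every library of both knockouts and of TFC, and at 0.0, 3.1 and 7.5 in V6.5.

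**Figure D1:**
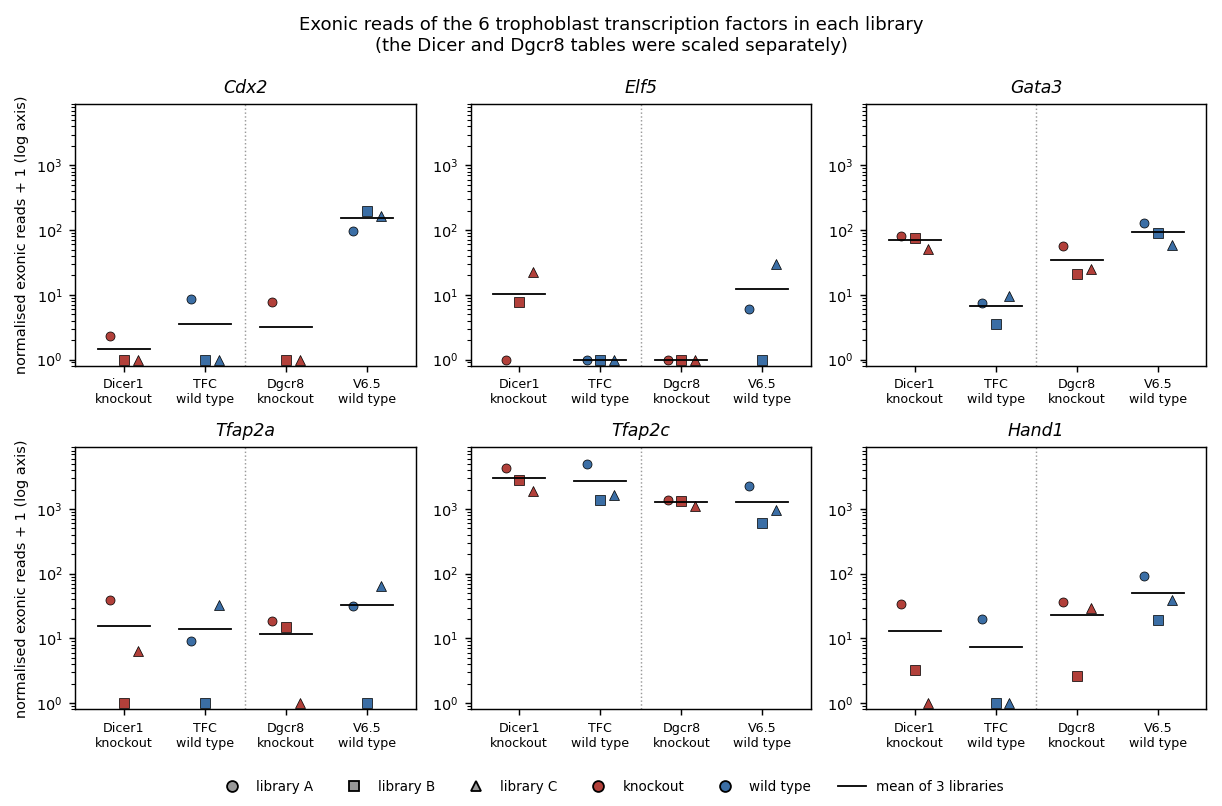
Normalised exonic reads plus 1 (log axis) of the 6 factors in each of the 12 libraries; red marks knockout and blue wild type, the marker shape gives the library, and bars are means of 3 libraries. Tfap2c is far above the others in all 12 libraries, Cdx2 stands at 96.5 to 194.1 in V6.5 alone, and Gata3 is above TFC in Dicer1 knockout and below V6.5 in Dgcr8 knockout.

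Gata3, a zinc-finger factor switched on by Tead4 in trophectoderm, had fold changes of opposite sign in the 2 pairs, neither past the test. It had 80.5, 75.0 and 50.5 normalised exonic reads in Dicer1 knockout libraries, from 126, 66 and 38 recovered reads, against 6.4, 2.5 and 8.6 in TFC, from 12, 2 and 6. The lowest knockout library thus stood well above the highest TFC library. The means were 68.6 ± 16 in Dicer1 knockout and 5.85 ± 3.10 in TFC (SD, n = 3 each), a ratio of 11.7. The log2 fold change was 3.44 (SE 1.32; unadjusted p = 0.0285 by limma across all genes), and the limma adjusted p of 0.274 did not pass. Gata3 had passed the filter on low values through Dicer1 knockout alone. In the limma fit with no filter its unadjusted p was 0.049 and its adjusted p 0.398. The change was 3.46 between the A libraries and 3.43 between the B and C libraries. Gata3 was 1 of 3 members tested in Dicer exons and the only one whose groups did not overlap, where 11.7% of all tested genes were higher in every knockout library than in any TFC library.

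In the Dgcr8 pair Gata3 had 56.7, 20.2 and 24.0 normalised exonic reads in the knockout, against 127.0, 88.9 and 57.4 in V6.5. The groups did not overlap, but the highest knockout library and the lowest V6.5 library were next to each other. The means were 33.6 ± 20.1 in Dgcr8 knockout and 91.1 ± 34.8 in V6.5 (SD, n = 3 each). The log2 fold change was -1.49 (SE 0.73; limma adjusted p = 0.374), with -1.15 between the A libraries and -1.65 between the B and C libraries. Cdx2 and Gata3 were the 2 of 5 members tested whose groups did not overlap, both lower in the knockout, where 11.9% of all tested genes were lower in this way.

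The difference of the 2 Gata3 effects was 4.92 on the log2 scale (SE 1.28; unadjusted p = 0.00208 by limma). Its limma adjusted p was 0.22, and 0.0718 to 0.587 over the alternatives, lowest with the library-set term. Over all genes, 0.156% of 13451 passed this contrast. Intronic reads of Gata3 were few: 7.6, 0.0 and 19.8 in Dicer1 knockout, against 0.0, 0.0 and 11.2 in TFC, and 27.3, 0.0 and 9.3 in Dgcr8 knockout, against 3.0, 10.8 and 2.5 in V6.5. The groups overlapped in both tables, and Gata3 did not reach the filter there.

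**Figure D2:**
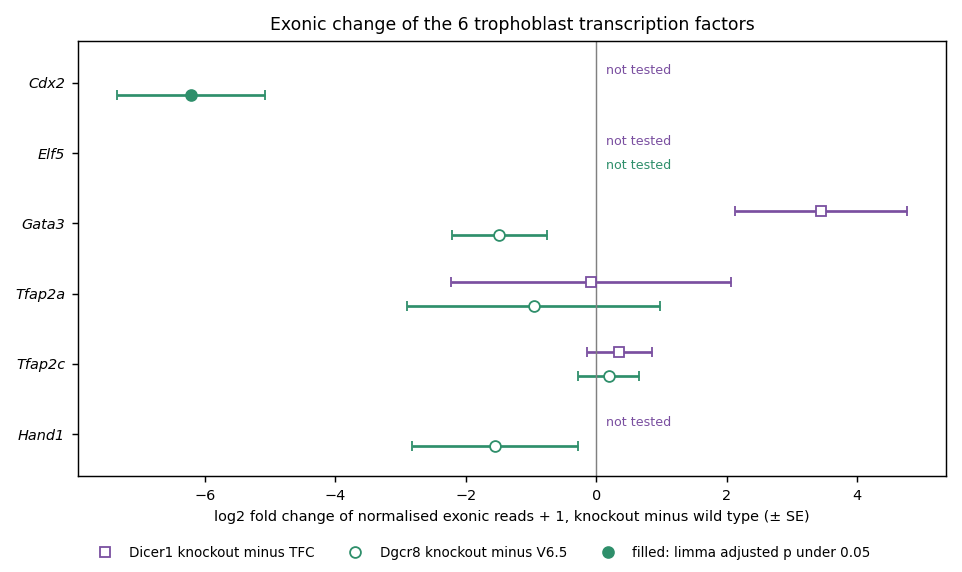
Log2 fold change of exonic reads plus 1, knockout minus wild type, with its standard error, for each factor in the Dicer pair (squares) and the Dgcr8 pair (circles); the filled marker is past the limma threshold. Cdx2 in the Dgcr8 pair, at -6.21, is the only filled one, and Gata3 lies at 3.44 in the Dicer pair and at -1.49 in the Dgcr8 pair.

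Elf5, the ETS factor of trophoblast stem cells whose promoter is known to be methylated in ESCs, had exonic reads in Dicer1 knockout and V6.5 only. It had 0.0, 6.8 and 21.2 normalised exonic reads in Dicer1 knockout libraries, from 0, 6 and 16 recovered reads, and was listed at 0 in TFC at depths of 12376141 to 30176230 reads per library. It was listed at 0 in Dgcr8 knockout, against 5.1, 0.0 and 28.7 in V6.5. A library at 0 made the groups overlap in both pairs. Elf5 did not reach the filter in any table, so it was not tested. Its intronic reads were at 0 in both knockouts, and single libraries of TFC (8.1) and V6.5 (37.4) held some.

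Tfap2a, the AP-2 alpha factor, was scattered over the libraries without following the groups. It had 38.3, 0.0 and 5.3 normalised exonic reads in Dicer1 knockout libraries, against 8.0, 0.0 and 31.6 in TFC. It had 17.5, 14.0 and 0.0 in Dgcr8 knockout libraries, against 30.5, 0.0 and 63.8 in V6.5. In each of the 4 groups 1 library held no read, and the groups overlapped in both pairs. The log2 fold changes were -0.08 (SE 2.15) in the Dicer pair and -0.96 (SE 1.94) in the Dgcr8 pair, with limma adjusted p of 0.994 and 0.883. The sign turned with the library left out in both pairs.

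Hand1, the basic helix-loop-helix factor of trophoblast giant cells, was tested in the Dgcr8 pair alone. It had 33.2, 2.3 and 0.0 normalised exonic reads in Dicer1 knockout libraries, against 19.3, 0.0 and 0.0 in TFC, most of them in the A libraries, and did not reach the filter. It had 35.0, 1.6 and 28.8 in Dgcr8 knockout libraries, against 91.4, 18.1 and 38.3 in V6.5. The groups overlapped, and the log2 fold change in the Dgcr8 pair was -1.55 (SE 1.27; limma adjusted p = 0.624). Its intronic reads were at 0 outside Dicer1 knockout library A (7.6).

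Set in order per kb of exon, Tfap2c led in all 4 groups and the order below it differed. In Dicer1 knockout it was followed by Gata3 (21.4 normalised reads per kb), Hand1 (6.23), Elf5 (4.17), Tfap2a (3.71) and Cdx2 (0.199). In TFC the order was Hand1 (3.38), Tfap2a (3.37), Gata3 (1.82), Cdx2 (1.16) and Elf5 (0). In Dgcr8 knockout it was Hand1 (11.5), Gata3 (10.5), Tfap2a (2.68), Cdx2 (1.04) and Elf5 (0), and in V6.5 Cdx2 (70.4), Gata3 (28.3), Hand1 (26), Tfap2a (8.01) and Elf5 (5.01). The libraries of neighbours in these orders overlapped, apart from the gap below Tfap2c in each group, the gap between Gata3 and Tfap2a in Dgcr8 knockout, and the gap between Cdx2 and Gata3 in V6.5.

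The genes whose pattern over the 12 exonic libraries was most like that of a member were named by Pearson r of log2(value + 1), each table centred on its own mean, among 12277 genes tested in both tables. Gata3 was close to Rab15 (r = 0.96) and to Col4a2 (0.95), which encodes a chain of basement membrane collagen. Tfap2a was closest to Soat2 (0.89), Eva1a (0.85) and Pdk2 (0.84), and Tfap2c to Tbc1d24 (0.93), Cacna2d2 (0.93) and the inhibitory Smad gene Smad7 (0.92). Among themselves these 3 members correlated at 0.17 to 0.43. The libraries share lines, depth and library set, and the closest of so many genes is high by selection, so these values are a description. Cdx2, Elf5 and Hand1 were not tested in both tables and have no such partners.

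Other regulators of trophoblast, from a list of 26 genes, were mostly higher in Dicer1 knockout without passing the test. Of 23 tested, 19 had a positive and 4 a negative log2 fold change, with a median of 0.94 beside -0.01 over all tested genes. Ets2, the ETS factor needed for trophoblast stem cells, was the only one called: it rose to 1352.1, 1528.9 and 1649.3 normalised exonic reads in Dicer1 knockout libraries, against 558.5, 387.7 and 466.0 in TFC (log2 fold change 1.69, SE 0.29; limma adjusted p = 0.0359). In all, 1.03% of tested genes were called higher in Dicer1 knockout and 0.228% lower. Tead4, the factor upstream of Cdx2 and Gata3, had 1174.4, 845.1 and 1204.4 in Dicer1 knockout, against 540.8, 125.1 and 129.4 in TFC (log2 fold change 2.36; limma adjusted p = 0.103, and 0.00507 with the library-set term). Tead4 was higher in the Dgcr8 pair too, at 874.9, 762.1 and 791.5 in Dgcr8 knockout, against 485.0, 348.4 and 169.0 in V6.5. The log2 fold change there was 1.40 (limma adjusted p = 0.161, and 0.0156 with the library-set term). The changes of Cdx2 and Gata3 in that pair were negative. Gcm1, the syncytiotrophoblast factor, had 37.7, 31.8 and 167.3 in Dicer1 knockout, against 0.0, 2.5 and 0.0 in TFC (limma adjusted p = 0.178). It had passed the filter on low values through Dicer1 knockout alone. Eomes, the partner of Cdx2 in trophoblast stem cells, went the other way without passing, at 162.3, 86.3 and 286.8 in Dicer1 knockout, against 285.7, 322.7 and 279.0 in TFC.

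Bmp4, a mesoderm-inducing signal in the mouse that is also used to turn human pluripotent cells toward trophoblast, was low in both knockouts. It had 10.2, 0.0 and 15.9 normalised exonic reads in Dicer1 knockout libraries, against 295.3, 215.1 and 258.9 in TFC (log2 fold change -5.47; limma adjusted p = 0.107, and 0.0265 with the library-set term). In this pair Bmp4 had passed the filter on low values through TFC alone, with means of 8.72 in Dicer1 knockout and 256 in TFC. In the fit with no filter its limma adjusted p was 0.159. It fell to 42.1, 35.7 and 8.0 in Dgcr8 knockout libraries, against 924.3, 447.3 and 363.4 in V6.5 (log2 fold change -4.46, SE 0.76; limma adjusted p = 0.0433). The groups did not overlap in either pair, and 9.64% of tested genes were lower in this way in Dicer1 knockout. In the Dgcr8 pair 25 of the 26 regulators were tested, 10 with a positive and 15 with a negative change, with a median of -0.98 beside -0.08 over all tested genes, and Bmp4 was the only one called.

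The trophoblast effectors, a list of 35 keratins, junction genes and placental products, had medians on opposite sides of 0 in the 2 pairs, a difference that was not tested. In Dicer exons 24 were tested, 19 of them higher in the knockout, with a median log2 fold change of 1.39. Lrp2, an endocytic receptor, rose to 4369.9, 4558.3 and 4792.5 normalised reads in Dicer1 knockout libraries, against 761.8, 1512.0 and 1196.6 in TFC (log2 fold change 2.04, SE 0.29; limma adjusted p = 0.0253). Rhox6, a homeobox gene of placenta and germ cells, rose to 883.1, 997.3 and 671.9, against 156.7, 177.6 and 192.7 in TFC (log2 fold change 2.26, SE 0.40; limma adjusted p = 0.0378), with reads that may be shared with near-identical Rhox copies. In each pair 8 effectors were listed at 0 in both groups.

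In Dgcr8 exons 25 effectors were tested, 19 of them lower in the knockout, with a median log2 fold change of -1.81. Over all tested genes 0.561% were called lower. Krt8 and Krt18, the paired keratins of simple epithelia and of trophectoderm, were among the 4 called, all lower. Krt18 fell to 388.9, 88.6 and 36.8 normalised reads in Dgcr8 knockout libraries, against 4083.0, 5900.6 and 5642.4 in V6.5 (log2 fold change -5.55, SE 0.76; limma adjusted p = 0.0258). Krt8 fell to 686.8, 132.1 and 123.1, against 5352.5, 6907.6 and 2999.7 in V6.5 (limma adjusted p = 0.0327). Cldn6, a tight-junction claudin, and Dab2, an endocytic adaptor also made by primitive endoderm, were the others, with log2 fold changes of -4.52 and -4.86 and the same order of knockout below V6.5 in every library. Plet1, a marker of trophoblast progenitors, had 714.7, 344.1 and 464.5 normalised reads in Dgcr8 knockout, against 152.3, 141.5 and 95.6 in V6.5 (limma adjusted p = 0.086). Plet1 thus stood on the other side from the keratins, without passing this test. It passed with the library-set term (limma adjusted p = 0.00458).

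**Figure D3:**
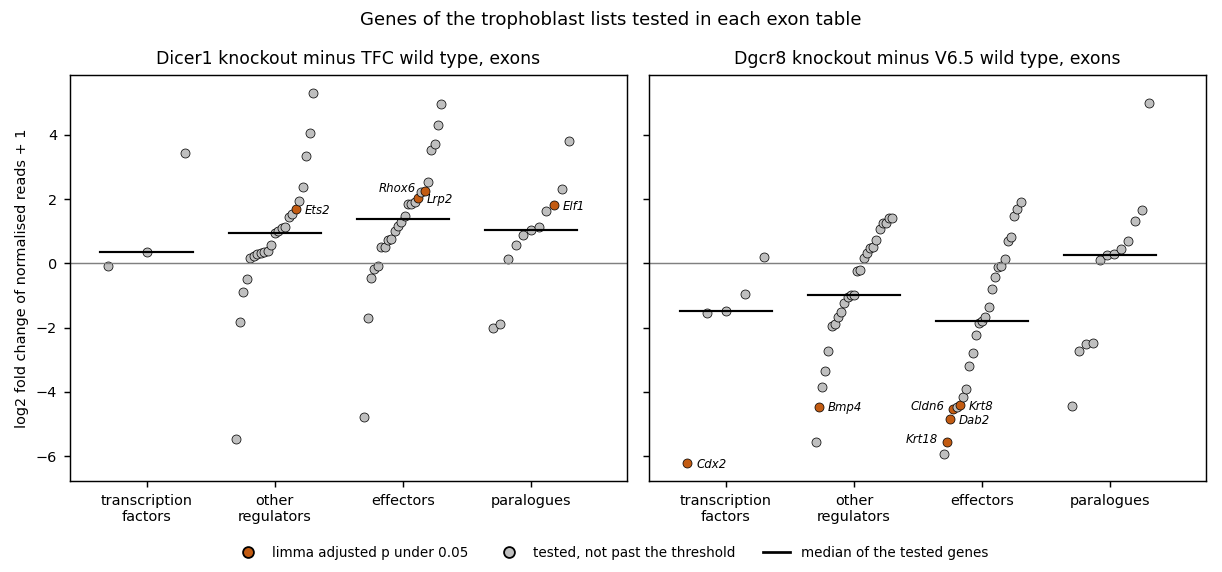
Log2 fold changes of all tested genes of the trophoblast lists in Dicer exons (left) and Dgcr8 exons (right), 1 point per gene, ordered by value within a list; coloured points are past the limma threshold and bars are medians. Median changes of the effectors are 1.39 in the Dicer pair and -1.81 in the Dgcr8 pair, and Cdx2 is the lowest member in the Dgcr8 panel.

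The paralogues of the members, 16 Cdx, Elf, Gata, Tfap2 and related genes, gave 1 call. Elf1, a broadly expressed ETS factor, rose to 1375.7, 2779.5 and 2880.3 normalised reads in Dicer1 knockout libraries, against 643.0, 510.2 and 782.4 in TFC (log2 fold change 1.81, SE 0.35; limma adjusted p = 0.0493), among 11 tested with a median of 1.03. Cdx1 shared the pattern of Cdx2 in the Dgcr8 pair without passing: it had 15.9, 0.0 and 17.6 normalised reads in Dgcr8 knockout libraries, against 167.6, 140.6 and 135.5 in V6.5 (log2 fold change -4.45; limma adjusted p = 0.125, and 0.0207 with the library-set term). The groups of Cdx1 did not overlap. None of the 12 paralogues tested in Dgcr8 exons was called.

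Markers of other cell types that use these factors moved with Cdx2 in the Dgcr8 pair. Of 11 measured markers of primitive streak and mesoderm, 8 were tested and 3 called, all lower in the knockout, beside 0.561% of all tested genes. The summed level was 535 to 580 normalised reads in Dgcr8 knockout libraries and 1430 to 5290 in V6.5. T, the brachyury factor of the streak, had no read in any Dgcr8 knockout library. In V6.5 it had 66.0, 2021.3 and 2242.6 normalised reads (limma adjusted p = 0.0327). T thus passed the filter on low values through V6.5 alone. Wnt3 had 15.0, 3.1 and 19.2 in the knockout, against 157.4, 912.7 and 886.2 in V6.5 (limma adjusted p = 0.0442). The V6.5 library A was the lowest of V6.5 in T and Wnt3. It was also the lowest in Cdx2 (96.5, against 194.1 and 162.6 in B and C) and in Krt18 (4083.0). In Bmp4, itself on the streak and mesoderm list, it was the highest (924.3). Mesp1 was at 0 in all 6 libraries. The part of these cells in the Cdx2 result was not tested.

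Fibroblast markers moved in the same direction. Of 11 markers 10 were tested, and Col1a1, Col1a2, Acta2 and Tagln were called lower in Dgcr8 knockout, again beside 0.561% of all tested genes, with a summed level of 601 to 1443 normalised reads in Dgcr8 knockout libraries and 5789 to 13506 in V6.5. Col1a1 had 96.8, 28.0 and 19.2 in the knockout, against 1000.4, 1770.0 and 1353.2 in V6.5. Col1a2 passed the filter on low values through V6.5 alone, with means of 6.95 in the knockout and 843 in V6.5. Of the 9 ESC markers 6 were tested and none was called, and these summed to 44481 to 71303 normalised reads in Dgcr8 knockout and 15894 to 57182 in V6.5. Nanog, Dppa5a and Tdgf1 were not tested, since their reads per library had no single solution in Dgcr8 knockout. Their deposited means were 12344, 31119 and 26073 in Dgcr8 knockout, against 7144, 15117 and 12858 in V6.5. Primitive endoderm markers summed to 869 to 1392 in Dgcr8 knockout and 1178 to 2265 in V6.5, with Dab2 called lower. The part of these markers in the fall of Cdx2 and the keratins was not tested.

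Surface ectoderm and neural crest markers bear on Gata3 and Tfap2a. The surface ectoderm keratin Krt5 was at 0 in all 12 libraries, and Trp63, Krt14, Krt15 and Dlx5 reached at most 20 normalised reads in any library. The summed surface ectoderm list, carried by Perp and Grhl3, was 1811 to 2631 in Dicer1 knockout and 1260 to 1443 in TFC, and 1277 to 2109 in Dgcr8 knockout and 1661 to 6130 in V6.5. Neural crest markers summed to 120 to 737 in Dicer1 knockout and 306 to 591 in TFC, and to 187 to 1205 in Dgcr8 knockout and 833 to 891 in V6.5. Foxd3 made up most of the sum in library A of Dicer1 knockout (601.9) and of Dgcr8 knockout (1070.2). Ets1 made up most of it in V6.5 libraries B and C (811.1 and 781.0). No marker of either list was called. With the library-set term Perp was called in both pairs, with a log2 fold change of 0.95 in Dicer1 knockout and -1.21 in Dgcr8 knockout (limma adjusted p = 0.0104 and 0.00644), and 1 neural crest marker was called lower in Dgcr8 knockout. Germ cell markers, which bear on Tfap2c, summed to 3951 to 4402 in Dicer1 knockout and 3012 to 3962 in TFC, and to 2284 to 2375 in Dgcr8 knockout and 1316 to 2399 in V6.5. Prdm14 was the only germ cell marker called, higher in Dgcr8 knockout at 685.1, 717.0 and 682.7 normalised reads, against 208.2, 85.3 and 73.3 in V6.5, where 0.790% of tested genes were called higher. Of 7 tested there, 5 had a positive and 2 a negative change. Dppa3 was lower without passing, at 90.5, 45.1 and 122.3 in Dgcr8 knockout, against 1391.5, 320.2 and 749.1 in V6.5 (limma adjusted p = 0.0667). With the library-set term Prdm1 and Prdm14 were called higher and Dppa3 lower in Dgcr8 knockout (8.39% and 8.66% of tested genes). In Dicer1 knockout Prdm14 and Ddx4 were then called higher and Dppa3 lower (7.28% and 4.90%).

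**Figure D4:**
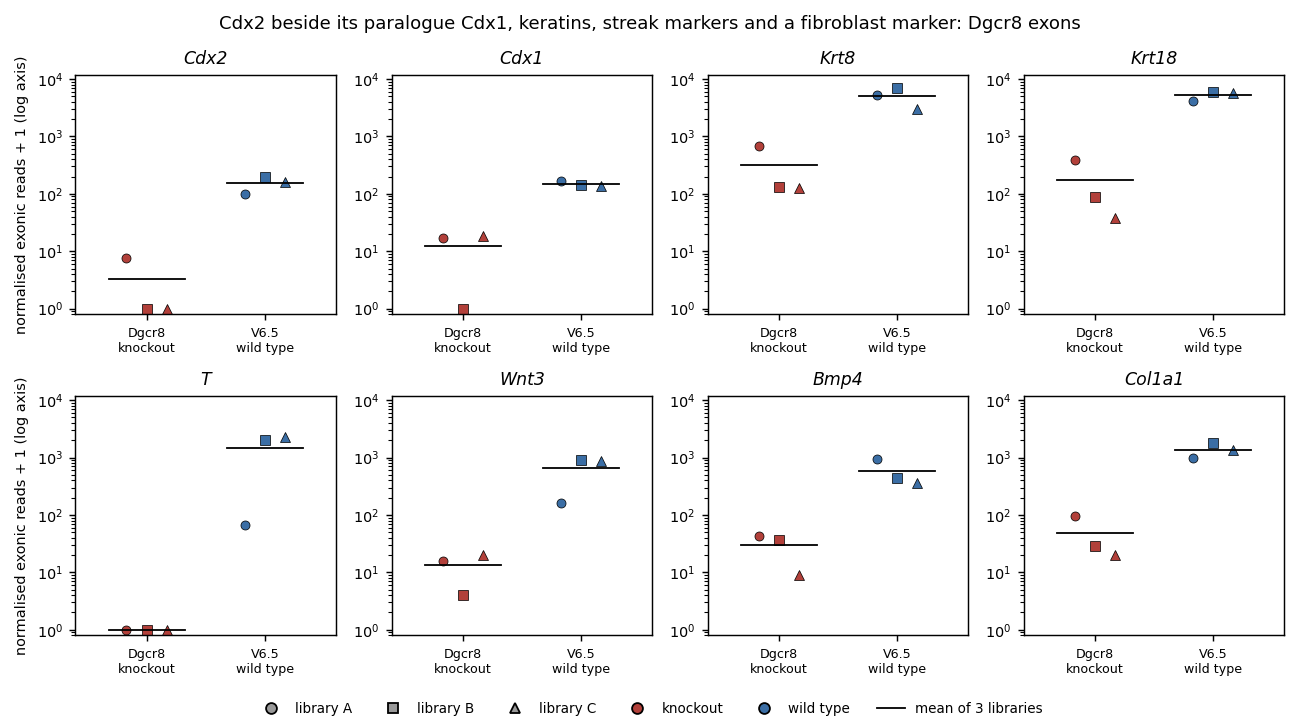
Normalised exonic reads plus 1 (log axis) in the 3 Dgcr8 knockout libraries (red) and the 3 V6.5 libraries (blue) for Cdx2, its paralogue Cdx1, 2 keratins, the streak genes T, Wnt3 and Bmp4, and the fibroblast gene Col1a1; bars are means of 3 libraries. Every knockout library lies below every V6.5 library in each of the 8 genes.

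The exon comparisons lost all or nearly all of their calls when a library other than A was left out. Over all genes tested, limma called 165 in Dicer exons and 171 in Dgcr8 exons. It called 0 once library C of any group or library B of either knockout or of V6.5 was left out, with 1154 to 1507 genes at an unadjusted p under 0.05 in Dicer exons and 1268 to 1496 in Dgcr8 exons, and 7 without library B of TFC. In Dgcr8 introns 26 to 72 genes, and in the difference of effects 11 to 17, were called without a library B or C. With the library-set term the calls were 1601 and 2159 (12.2% and 17.0% of tested genes), and no member other than Cdx2 was among them. In Dicer exons 4 of the other regulators were then called higher and 1 lower, and 8 of the effectors higher and 1 lower, beside 7.28% higher and 4.90% lower over all tested genes. In Dgcr8 exons 3 regulators were called higher and 5 lower, and 2 effectors higher and 14 lower, beside 8.39% and 8.66%. Of the markers in Dgcr8 exons, 4 of streak and mesoderm and 6 of fibroblasts were called lower, and 3 of ESCs higher.

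With the A libraries left out, limma called 0.304% of tested genes higher and 0.114% lower in Dicer1 knockout, and 7.86% higher and 8.12% lower in Dgcr8 knockout, an alternative chosen after the values were seen. In Dicer exons Ets2, Lrp2, Rhox6 and Elf1 then no longer passed, at log2 fold changes of 1.90, 1.80, 2.14 and 2.16 beside 1.69, 2.04, 2.26 and 1.81 with all libraries. Id2, an inhibitor of helix-loop-helix factors, and Atp1b1, a subunit of the sodium pump, were the genes of the trophoblast lists called, both higher in Dicer1 knockout. In Dgcr8 exons Cdx2 was again the only member called. Of the other regulators 3 were then called higher and 5 lower in Dgcr8 knockout, and of the effectors 3 higher and 11 lower, with Krt8, Krt18, Cldn6 and Dab2 among the lower and Plet1 among the higher. Of the streak and mesoderm markers 5 and of the fibroblast markers 7 were then lower. The ESC markers Pou5f1, Sox2, Klf4 and Fgf4 were called higher in Dgcr8 knockout with these libraries.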

How the data were processed

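PolyA RNA of 12 libraries of mouse ESC lines was sequenced, with strand kept by the UTP method per the labels' protocols. The submitters' processing notes name DESeq, TopHat2 2.0.12 and build mm10; the rule that assigned reads to exons or introns is not given here. The authors deposited normalised reads (a signal, that is, reads over a library's size factor) as 1 group mean per genotype in 4 tables, each scaled on its own.

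The tests were planned for single libraries. Each mean is a whole-number combination of 3 steps, 1 per library, and solving for these gave whole reads per library (size factors 0.338 to 2.397). A single solution was found for 99.07% to 100.00% of genes per column, and genes with several were left out. Of the recovered read numbers 66.5% to 71.6% were even, so read totals overstate precision and counting intervals are not given. Library A is the one least correlated, on average, with its group, and B and C are ordered by size factor. Each intronic library was lettered by the exonic one it deviated with, clearly for A (r of 0.304 to 0.418) and weakly for B and C (0.094 to 0.280).

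limma 3.58.1 (R 4.3.3, variance trend, 4 residual degrees of freedom) was run on log2(value + 1), knockout minus wild type, over genes with a mean of at least 10, with Benjamini-Hochberg adjusted p under 0.05 as a call. Adding 1 makes changes of low genes look smaller, while libraries at 0 can widen it. The pairs were compared in 1 fit over 12 libraries, and exonic with intronic change on log2 differences centred on each library's median. An exact permutation test of 3 against 3 libraries cannot go below p = 0.1. The procedure was tested on simulated data.

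Alternatives were pseudocounts of 0.5 and 5, no filter, a library-set term, limma-voom with upper-quartile scaling and leaving out each library. Libraries B and C alone, and keeping genes with several solutions, were added after seeing the data. Members, lists and markers were chosen with earlier results of these data known. Besides the members, every called list gene and the 3 highest and 3 lowest of each list could be named. Seed matches used GENCODE M21 and RefSeq microRNAs. A gene that this rule or the rule of likeness would name is not reported here.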

Additional observations from a re-analysis of the deposited data

Results flagged for a closer look

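Gata3 was the only member whose effects in the 2 pairs lay on opposite sides with every library. All 3 Dicer1 knockout libraries (50.5 to 80.5 normalised exonic reads) were above all 3 TFC libraries (2.5 to 8.6), and all 3 Dgcr8 knockout libraries (20.2 to 56.7) were below all 3 V6.5 libraries (57.4 to 127.0). Over all tested genes, 11.7% were higher without overlap in the Dicer pair and 11.9% lower without overlap in the Dgcr8 pair. The Dicer effect minus the Dgcr8 effect was 4.92 on the log2 scale (SE 1.28), and the limma adjusted p of 0.22 did not pass the threshold.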

How the results depend on the processing

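No paired analysis was possible because the deposited columns carry no replicate number; the library-set term is a block read from the values instead. Over 237 recomputed values of 17 member results, 212 kept their direction and their side of the threshold, 7 lost the call of Cdx2 in Dgcr8 exons and 18 changed sign, all of results that were not called.

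The library-set term gave 1601 calls in Dicer exons, 91 in Dicer introns, 2159 in Dgcr8 exons, 451 in Dgcr8 introns and 336 for the difference of effects, against 165, 41, 171, 163 and 21 without it. Limma-voom called 34 and 53 genes in Dicer and Dgcr8 exons. A pseudocount of 5 gave 72 and 272 calls in Dicer and Dgcr8 introns. Libraries B and C alone gave 55 in Dicer exons, 0 in Dicer introns (1164 at an unadjusted p under 0.05 by limma), 2025 in Dgcr8 exons and 549 for the difference. Leaving out 1 library at a time gave 0 to 482 calls in Dicer exons, 0 to 37 in Dicer introns, 0 to 467 in Dgcr8 exons, 26 to 176 in Dgcr8 introns, 11 to 95 for the difference and 0 for exons minus introns in both pairs.

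Without 1 library at a time, the log2 fold change of Tfap2a was -1.45 to 1.24 in Dicer exons and -2.79 to 0.39 in Dgcr8 exons, and its difference of effects -0.49 to 2.71. That of Tfap2c was -0.25 to 0.71 in Dgcr8 exons and -0.86 to 0.022 in Dgcr8 introns, and its difference of effects -0.36 to 0.75. Limma-voom turned Tfap2a in Dicer exons to 0.072. Libraries B and C alone turned the difference of effects of Tfap2a to -0.13 and of Tfap2c to -0.020. Cdx2 in Dgcr8 exons lost its call with a pseudocount of 0.5 (limma adjusted p = 0.0633), with limma-voom (0.0992) and without 5 of its 6 libraries in turn (0.0558 to 0.265); it kept the call at 0.0499 with genes of several solutions retained and at 0.00956 with libraries B and C alone. The causes were not tested. Low read numbers limit Elf5, Hand1 and Tfap2a, which were at 0 in part of the libraries. They also limit Cdx2, with 16, 0 and 0 recovered exonic reads in Dgcr8 knockout, and Gata3, with 12, 2 and 6 in TFC.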
